A study of Mus musculus with 9 samples.

Results

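Genes of glucose uptake, glycolysis, lactate handling, glycogen use and the response to low oxygen were followed in leg muscle of mice with a hindlimb ischaemia model. They were picked by symbol as a list of 35, and every symbol was found in the gene count table, in 36 of its 55335 rows. Aldoa has 2 rows, and the row with the higher counts stands for it here. Bulk RNA sequencing gave 1 library from each of 9 WT c57b6l mice. All 9 mice were put through the hindlimb model, whose label names both suspension and ischemia. Of these, 3 then received a peptide hydrogel combined with aspirin (called hydrogel libraries here), 3 received aspirin alone, given against inflammation, and 3 were left untreated as controls. The model, the strain and the WT genotype were thus shared by all groups, and neither uninjured muscle nor the hydrogel without aspirin was analysed here. Where the hydrogel was placed, the dose, the sex and age of the mice and the time after injury are not given in the labels.

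Glycolysis splits glucose into pyruvate and yields ATP without oxygen. Skeletal muscle feeds it from blood glucose and from glycogen, and fast fibres carry muscle-specific forms of several of its enzymes. Pfkm (phosphofructokinase), Pgam2 (phosphoglycerate mutase), Eno3 (enolase) and Pygm (glycogen phosphorylase) are such muscle forms. When oxygen is scarce, the prolyl hydroxylases that mark hypoxia-inducible factor for destruction slow down, and the stabilised factor binds hypoxia response elements and switches on glucose transporters, glycolytic enzymes, lactate export and brakes on pyruvate oxidation. That control acts mainly on the factor's protein, which an RNA measurement does not show. Here 15 of the 35 genes form the hypoxia-induced list, Slc2a1, Hk2, Pfkfb3, Pgk1, Ldha, Slc16a3, Pdk1, Bnip3, Egln1, Egln3, Car9, Ndrg1, Ankrd37, P4ha1 and Adm, and the 4 muscle forms the muscle-type list. Many of the 15 are also made in resting muscle.

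Promoters were read first because the core of a hypoxia response element is short and can be searched for. RefSeq promoter windows (GRCm38.p6, the assembly of mm10), running from 250 bases before to 50 bases after an annotated start, were found for 32 of the 35 genes, in 47 windows. The core was searched as ACGTG or GCGTG on both strands. CACGTG holds ACGTG on both strands, so a gene with it also counts here. All 14 hypoxia-induced genes with a window had at least 1 match, against 3 of the 4 muscle-type genes, 27 of the 32 genes with a window and 46.7% of 27025 genes in the table. The windows of the hypoxia-induced genes also had a median G and C content of 66.7%, against 53.7% for the muscle-type and 52.7% for all windows, and genes with several windows have more chances of a match. CAGCTG, an E-box read by the myogenic MyoD family of factors, was found in 3 of the 14, in 3 of the 4 and in 18.3% of all genes. A match describes the letters and not a bound site. The windows below belong to the hypoxia-induced and lactate genes with the clearest group differences and to a pair of muscle-type genes, and are written 5′ to 3′ on the gene's strand. In the first 3, capitals mark the hypoxia response core.
Pfkfb3 (chr2:11553880-11554179, minus strand, 69.7% G and C): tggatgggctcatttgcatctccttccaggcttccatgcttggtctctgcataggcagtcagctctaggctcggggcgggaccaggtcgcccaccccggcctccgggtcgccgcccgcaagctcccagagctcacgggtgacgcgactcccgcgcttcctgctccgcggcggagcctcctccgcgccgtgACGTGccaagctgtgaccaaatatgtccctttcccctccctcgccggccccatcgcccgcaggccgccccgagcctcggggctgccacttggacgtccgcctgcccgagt
Pdk1 (chr2:71872974-71873273, plus strand, 66.0% G and C): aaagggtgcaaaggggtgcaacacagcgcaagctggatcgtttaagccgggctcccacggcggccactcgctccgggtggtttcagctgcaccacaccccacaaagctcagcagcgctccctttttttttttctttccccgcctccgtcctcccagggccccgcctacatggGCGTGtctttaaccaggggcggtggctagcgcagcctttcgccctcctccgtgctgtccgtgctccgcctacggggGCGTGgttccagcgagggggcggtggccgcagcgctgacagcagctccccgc
Ldhb (chr6:142507908-142508207, minus strand, 57.3% G and C): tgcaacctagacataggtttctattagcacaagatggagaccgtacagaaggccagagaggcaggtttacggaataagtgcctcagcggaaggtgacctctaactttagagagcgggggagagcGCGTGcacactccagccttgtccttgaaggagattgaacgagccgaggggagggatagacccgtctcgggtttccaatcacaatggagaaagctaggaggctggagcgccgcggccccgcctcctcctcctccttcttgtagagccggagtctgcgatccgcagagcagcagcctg
In the other 2, capitals mark CAGCTG, and any hypoxia response core is left in lower case.
Pygm (chr19:6384158-6384457, plus strand, 58.7% G and C): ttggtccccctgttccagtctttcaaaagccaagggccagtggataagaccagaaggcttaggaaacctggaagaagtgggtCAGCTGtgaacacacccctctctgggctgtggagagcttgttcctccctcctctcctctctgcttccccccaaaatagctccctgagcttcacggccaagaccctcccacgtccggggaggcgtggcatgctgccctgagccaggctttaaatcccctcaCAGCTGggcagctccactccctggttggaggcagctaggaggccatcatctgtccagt
Pgam2 (chr11:5803747-5804046, minus strand, 53.3% G and C): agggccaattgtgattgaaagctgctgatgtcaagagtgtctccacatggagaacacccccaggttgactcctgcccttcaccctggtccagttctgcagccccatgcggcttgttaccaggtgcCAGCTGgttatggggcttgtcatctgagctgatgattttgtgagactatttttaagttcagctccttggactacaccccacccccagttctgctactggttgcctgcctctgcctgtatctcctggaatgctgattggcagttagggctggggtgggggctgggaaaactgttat
The Pgam2 window held no hypoxia response core and CAGCTG once, 125 bases before the start. The Pygm window held CAGCTG at 168 and 8 bases before the start and the hypoxia response core at 61 and 48 bases before it. The core lay 60 bases before the start in the Pfkfb3 window printed, 126 bases before it in the Ldhb window and at 78 and 2 bases before it in the Pdk1 window, which also held CAGCTG.

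The libraries held 32197791 to 48170537 counts, and all 35 genes passed the filter on low counts, which kept 18259 genes. Counts are given as CPM, counts scaled to the TMM-adjusted library size (TMM factors of 0.688 to 1.63). A principal component holding 51.9% of the variance set Aspirin replicate 1 at -152 and Hydrogel replicate 3 at 101, with the other 7 libraries from -49.2 to 39.2. The labelled tissue was checked against 12 markers of fast fibres, and no marker was at 0 in every library. Their summed level was 195945 to 359026 CPM in the hydrogel libraries, 28217 to 289148 CPM in the aspirin libraries and 114807 to 256556 CPM in the controls, and the lowest value is that of Aspirin replicate 1. Medians over lists, and values of Ldhb, Pfkfb3, Pdk1, Hif1a and Epas1, that involve the aspirin group are also given without that library. The submitters' library codes differ in their first number between the groups and within the aspirin group, so any handling they mark and the treatment cannot be told apart. All p-values measure the spread between these mice.

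Per unit of transcript length, 3 of the 4 muscle forms were among the 5 highest genes of the list. On the deposited FPKM scale, which accounts for length, 5 genes averaged over 1000 FPKM across the 9 libraries, namely Aldoa (2430 FPKM), Eno3 (1780 FPKM), Pygm (1490 FPKM), Pgam2 (1380 FPKM) and Gapdh (1140 FPKM). Their ranges across the libraries overlapped, from 201 FPKM for the lowest Pygm value to 3590 FPKM for the highest Aldoa value. Within a library, Aldoa was the highest of the 5 in 9 of 9, Eno3 lay above Pgam2 and Gapdh in 9 of 9 and above Pygm in 8 of 9, and Pgam2 lay above Gapdh in 9 of 9, while Pygm lay above Pgam2 in 4 of 9. Ldha (619 FPKM), Pfkm (617 FPKM), Pkm (442 FPKM), Tpi1 (433 FPKM), Pgk1 (356 FPKM) and Gpi1 (119 FPKM) followed. The other 24 genes averaged under 100 FPKM, 12 of them under 10 FPKM. Among those 12 were the hypoxia-induced genes Egln3 (8.30 FPKM), P4ha1 (8.05 FPKM), Pdk1 (6.85 FPKM), Ndrg1 (5.14 FPKM), Adm (4.69 FPKM), Slc2a1 (2.37 FPKM), Ankrd37 (1.17 FPKM) and Car9 (0.710 FPKM).

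The 4 muscle-type enzymes varied together from library to library and did not separate the groups. Pfkm (ENSMUSG00000033065, chromosome 15, 98092589 to 98132451, plus strand of mm10) stood at 2232, 2402 and 4562 CPM in the hydrogel libraries, 243, 2209 and 3145 CPM in the aspirin libraries and 1591, 2784 and 2903 CPM in the controls. Pgam2 (ENSMUSG00000020475, chromosome 11, 5801640 to 5803733, minus strand) stood at 1318, 1332 and 2198 CPM in the hydrogel libraries, 233, 1154 and 2298 CPM in the aspirin libraries and 814, 1231 and 1806 CPM in the controls. For both genes the distance between any 2 group means was smaller than the SD of either group. Eno3 (ENSMUSG00000060600, chromosome 11, 70657202 to 70662513, plus strand) was at 3083, 3398 and 5983 CPM in the hydrogel libraries, 704, 3202 and 6254 CPM in the aspirin libraries and 2179.5, 3077 and 4965 CPM in the controls. Pygm (ENSMUSG00000032648, chromosome 19, 6384399 to 6398459, plus strand) was at 4802, 6172 and 12685 CPM in the hydrogel libraries, 446, 5092 and 8522 CPM in the aspirin libraries and 2759, 5054 and 6758 CPM in the controls. All 3 groups overlapped for all 4 genes, and Aspirin replicate 1 lay below the other 8 libraries for each.

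**Figure D1:**
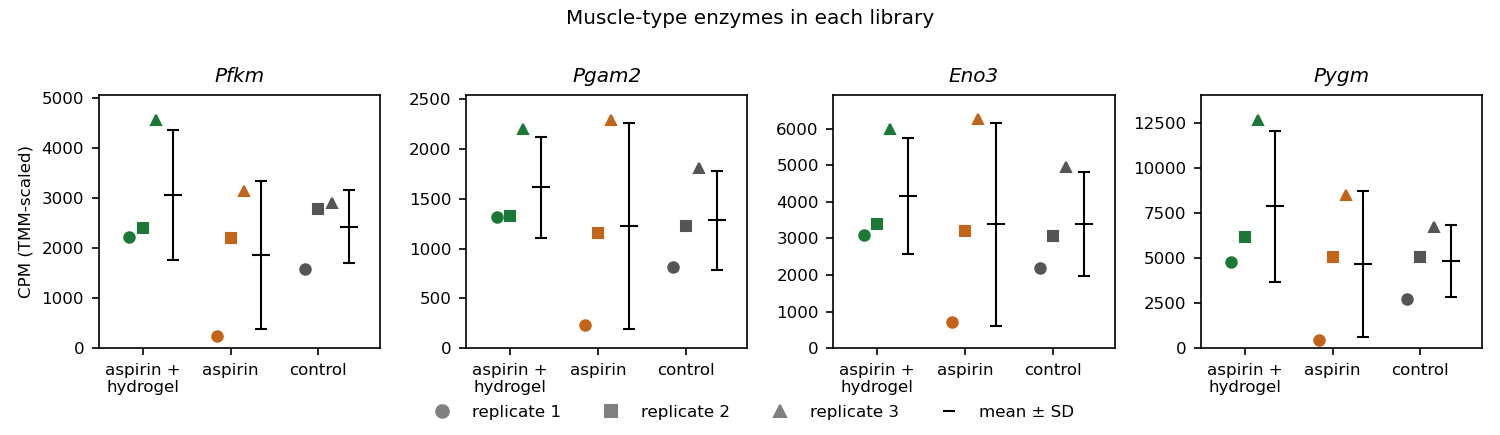
Level of Pfkm, Pgam2, Eno3 and Pygm (y axes, CPM on TMM-scaled library sizes, from 0) in the hydrogel, aspirin and control libraries (x axis). Symbols give the 3 replicates of a group and the bar beside them the mean ± SD (n = 3). Aspirin replicate 1 lies lowest in every panel, at 446 CPM for Pygm, and the groups overlap.

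Aspirin against no treatment gave muscle-type log2 fold changes of -0.38 ± 0.79 (SE) for Pfkm, -0.064 ± 0.72 for Pgam2, -0.0088 ± 0.73 for Eno3 and -0.052 ± 0.90 for Pygm, a median of -0.058 with 0 of 4 higher. With Aspirin replicate 1 left out, 4 of 4 were higher, with a median of 0.44, and with Control replicate 3 left out it was 3 of 4, with a median of 0.27. Scaling by library size alone put 1 of 4 higher, Eno3 at 0.020, where all genes had a median of 0.27. Hydrogel against control gave 0.34 ± 0.79 for Pfkm, 0.33 ± 0.72 for Pgam2, 0.29 ± 0.74 for Eno3 and 0.70 ± 0.90 for Pygm, a median of 0.33 with 4 of 4 higher. That median was -0.027, with 2 of 4 higher, without Hydrogel replicate 3, and it was 0.1 without Control replicate 1 and 0.67 without Control replicate 3. Hydrogel against aspirin gave 0.72 ± 0.79, 0.40 ± 0.72, 0.29 ± 0.74 and 0.75 ± 0.91 in the same order of genes, a median of 0.56 with 4 of 4 higher. Leaving out Aspirin replicate 1 gave a median of 0.058 with 2 of 4 higher, leaving out Hydrogel replicate 3 gave 0.16 with 3 of 4 and leaving out Aspirin replicate 3 gave 1.28 with 4 of 4. The adjusted p of these genes ran from 0.928 to 0.998 in the first comparison, from 0.987 to 0.989 in the second and from 0.691 to 0.867 in the third, by edgeR's quasi-likelihood test with Benjamini-Hochberg adjustment over all genes tested. The 95% interval of the Pgam2 difference between aspirin and control, -1.69 to 1.56 on the log2 scale, spans changes of more than a doubling in either direction.

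The muscle-type enzymes kept close to a fixed share of the fast-fibre markers. Their sum ran from 1626 to 25427 CPM over the 9 libraries, a 15.6-fold range, and the sum of the 12 fast-fibre markers had a 12.7-fold range. As a percentage of the marker sum it was 5.84, 6.21 and 7.08% in the hydrogel libraries, 5.76, 7.02 and 6.99% in the aspirin libraries and 6.40, 6.44 and 6.40% in the controls, a 1.23-fold range. In the other 8 libraries the muscle-type sum had a 3.46-fold range, while its share of the marker sum ran from 5.84 to 7.08%. Both sums come from the same libraries and share their depth and scaling, so the relation is a description. In whole muscle RNA, fewer fibres and less RNA per fibre cannot be told apart.

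**Figure D2:**
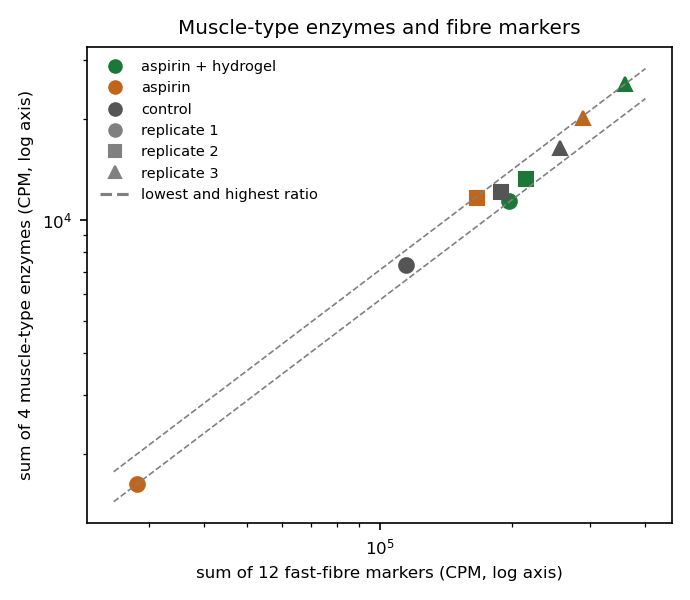
Sum of the 4 muscle-type enzymes (y axis, CPM, log scale) against the sum of 12 fast-fibre markers (x axis, CPM, log scale), 1 symbol per library, coloured by group and shaped by replicate. Dashed lines mark the lowest and the highest ratio, and all 9 libraries lie between 5.76 and 7.08%.

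Set against the same fibre markers, some of the 35 genes varied less between libraries and others more. For each gene the CPM was divided by the fast-fibre sum of its library, and the range over the libraries was compared before and after. The range was narrower after division for 20 of 35 genes, among them all 4 muscle-type genes (median range 1.65-fold, against 14.3-fold for CPM, and 1.37-fold against 2.87-fold without Aspirin replicate 1) and 10 of 10 in a wider list of genes known for muscle (Aldoa, Slc2a4, Gys1, Phkg1, Phka1 and Pfkfb1 beside the 4). Only 5 of the 15 hypoxia-induced genes were in this class, Hk2, Pgk1, Ldha, Slc16a3 and Egln1. Slc16a3, which exports lactate, ran from 20.3 to 204 CPM and had a 1.34-fold range per fibre marker, and the oxygen sensor Egln1 had ranges of 10.8-fold and 1.45-fold. For the other 10 the range was wider after division, such as 41.5-fold against 3.26-fold for Slc2a1 and 23.7-fold against 1.93-fold for Ndrg1. Without Aspirin replicate 1 these were 7.78-fold against 2.84-fold and 6.03-fold against 1.93-fold. When Aspirin replicate 1 was left out, 20 of 35 genes were again narrower, with 4 of 4 muscle-type, 9 of 10 in the wider list and 7 of 15 hypoxia-induced, since Pfkfb3 and Car9 were then narrower too. A gene whose CPM varies little must widen when divided by a sum with a 12.7-fold range. The share of all genes that became narrower was not taken. These counts are a description with no test.

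Aspirin replicate 1 gave the clearest contrast between the lists. It lay below all other 8 libraries for 24 of the 35 genes, where 32.4% of 14572 genes averaging at least 1 CPM did so. The 24 held 4 of 4 muscle-type and 7 of 15 hypoxia-induced genes. The ratio of this library's CPM to the median of the other 8 had a median of 0.135 for the muscle-type genes, 0.607 for the hypoxia-induced genes and 0.189 for the fast-fibre markers. Single ratios overlapped between the lists, from 0.0791 to 0.213 for the muscle-type and from 0.146 to 2.43 for the hypoxia-induced genes. Over those 14572 genes the median ratio was 0.971. Aspirin replicate 1 lay above all other libraries for 3 of the 35 genes, where 4366 of the 14572 genes did so. These 3 were Slc2a1, Hif1a and Ankrd37, at 1.53, 2.22 and 2.43 times the median of the other 8. The 14 macrophage markers summed to 3291 CPM in this library and to 659 to 3033 CPM in the other 8. Lymphocyte markers summed to 991 CPM in it and to 2.71 to 351 CPM in the others, and neutrophil markers to 432 CPM in it and to 11.4 to 187 CPM in the others. Endothelial and smooth muscle markers were lowest in it, at 245 and 1009 CPM. The part of other cell types in these values was not tested.

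**Figure D3:**
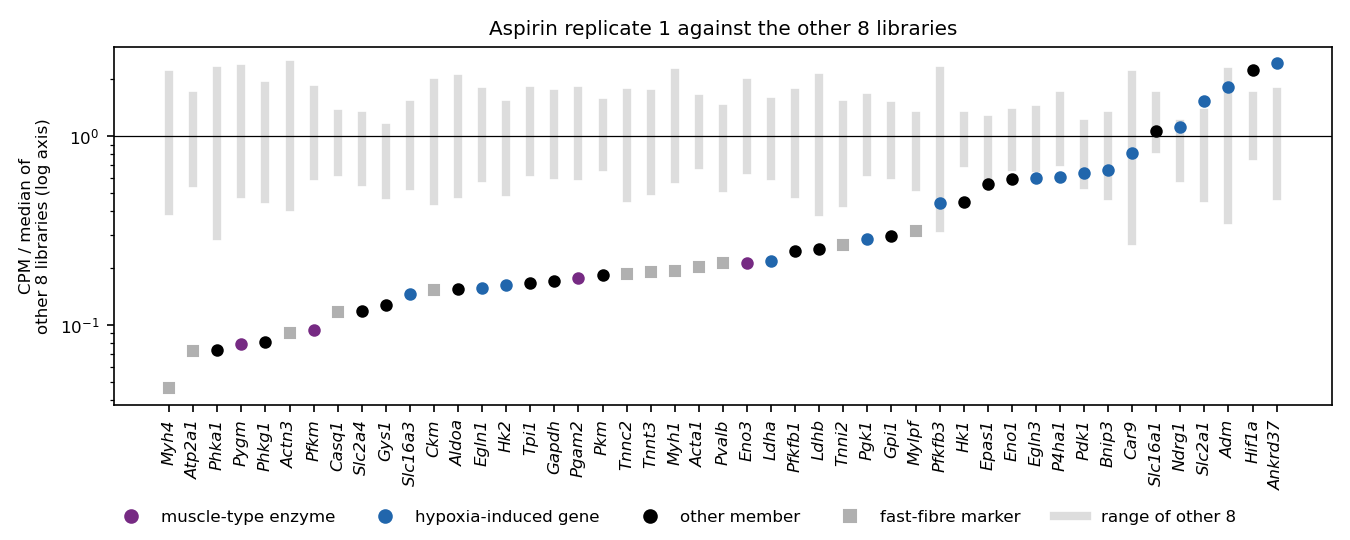
CPM of Aspirin replicate 1 divided by the median of the other 8 libraries (y axis, log scale) for the 35 genes and the 12 fast-fibre markers (x axis, sorted). Pale bars give the range of the other 8 libraries. The muscle-type genes have a median ratio of 0.135 and Ankrd37 lies highest at 2.43.

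The difference between both lists was also taken within each library, as the median log2 CPM of the hypoxia-induced genes minus that of the muscle-type genes. Gene length enters this value, so it is read across libraries and not as a level. It was -5.80, -5.49 and -6.15 in the hydrogel libraries, -3.86, -6.24 and -6.19 in the aspirin libraries and -4.87, -5.43 and -5.78 in the controls. The highest value was that of Aspirin replicate 1, the groups overlapped, and the group means differed by -0.069 for aspirin minus control, -0.45 for hydrogel minus control and -0.38 for hydrogel minus aspirin. Leaving out 1 library at a time, the first ran from -0.85 without Aspirin replicate 1 to 0.34 without Aspirin replicate 2, and it was 0.31 without Aspirin replicate 3, 0.17 without Control replicate 1, -0.28 without Control replicate 3 and -0.105 without Control replicate 2. The second ran from -0.66 without Control replicate 3 to -0.21 without Control replicate 1, and it was -0.28 without Hydrogel replicate 3. The third was 0.40 without Aspirin replicate 1, -0.79 and -0.76 without Aspirin replicates 2 and 3 and -0.21 without Hydrogel replicate 3. On the log2 FPKM scale the first was 0.42 and the third -0.82.

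Across all 35 genes no difference passed an adjusted p of 0.05 in edgeR, and DESeq2 passed 1, Ldhb between aspirin and control. Aspirin against control had 7 genes higher and 28 lower, with a median log2 fold change of -0.22, where all 18259 genes had a median of 0.046 and 54.0% were higher. Called genes made up 0% of all genes there (DESeq2 called 101 genes), while 3.09% had an unadjusted p under 0.05 and were higher and 3.39% were lower. Among the 35, Hif1a was higher and Ldhb, Pfkfb3, Epas1 and Pdk1 lower by that looser measure. No gene of the 35 had all aspirin libraries above all controls, as 5.54% of all genes did, and 4 had all below, Ldhb, Pfkfb3, Epas1 and Pdk1, as 5.44% of all genes did. The adjusted p ran from 0.753 to 0.998 by edgeR. Leaving out Aspirin replicate 1, 23 of the 35 were higher with a median of 0.13, without Control replicate 3 17 were higher with a median of -0.031, without Control replicate 1 the median was -0.46 and without Aspirin replicate 3 it was -0.81.

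Hydrogel against control had 25 genes higher and 10 lower, with a median log2 fold change of 0.21, where all genes had a median of -0.030 and 47.1% were higher. Called genes again made up 0% of all genes (DESeq2 called 18), while 1.74% were higher and 2.18% lower by an unadjusted p under 0.05, which 0 of the 35 reached. Egln1 had all hydrogel libraries above all controls, as 6.85% of all genes did, and Ndrg1 and Eno1 had all below, as 6.30% of all genes did. The adjusted p ran from 0.987 to 0.998 by edgeR. Without Hydrogel replicate 3, 13 of the 35 were higher with a median of -0.037, without Control replicate 1 the median was 0.037 and without Control replicate 3 it was 0.49. With scaling by library size alone 17 of 35 were higher in this comparison, while the median of all genes was then -0.25.

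Hydrogel against aspirin had 28 genes higher and 7 lower, with a median log2 fold change of 0.501, where all genes had a median of -0.053 and 46.7% were higher. Called genes made up 0% of all genes (DESeq2 called 157), while 3.32% were higher and 7.61% lower by an unadjusted p under 0.05. Of the 35, Ldhb, Epas1 and Pfkfb3 were higher and Hif1a lower by that measure. Ldhb, Epas1 and Pfkfb1 had all hydrogel libraries above all aspirin libraries, as 7.46% of all genes did, and 0 of the 35 had all below, as 8.75% of all genes did. The adjusted p ran from 0.453 to 0.994 by edgeR. Once Aspirin replicate 1 was left out, 21 of the 35 were higher with a median of 0.093, without Aspirin replicate 3 the median was 1.09 and without Hydrogel replicate 3 it was 0.21. This comparison shares the aspirin libraries with the first and the hydrogel libraries with the second. In a single test for any difference among the 3 groups, called genes made up 0% of all genes (DESeq2 called 153) and 6.97% had an unadjusted p under 0.05, as did Ldhb, Pfkfb3, Epas1 and Hif1a among the 35. Their adjusted p was 0.659 by edgeR.

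**Figure D4:**
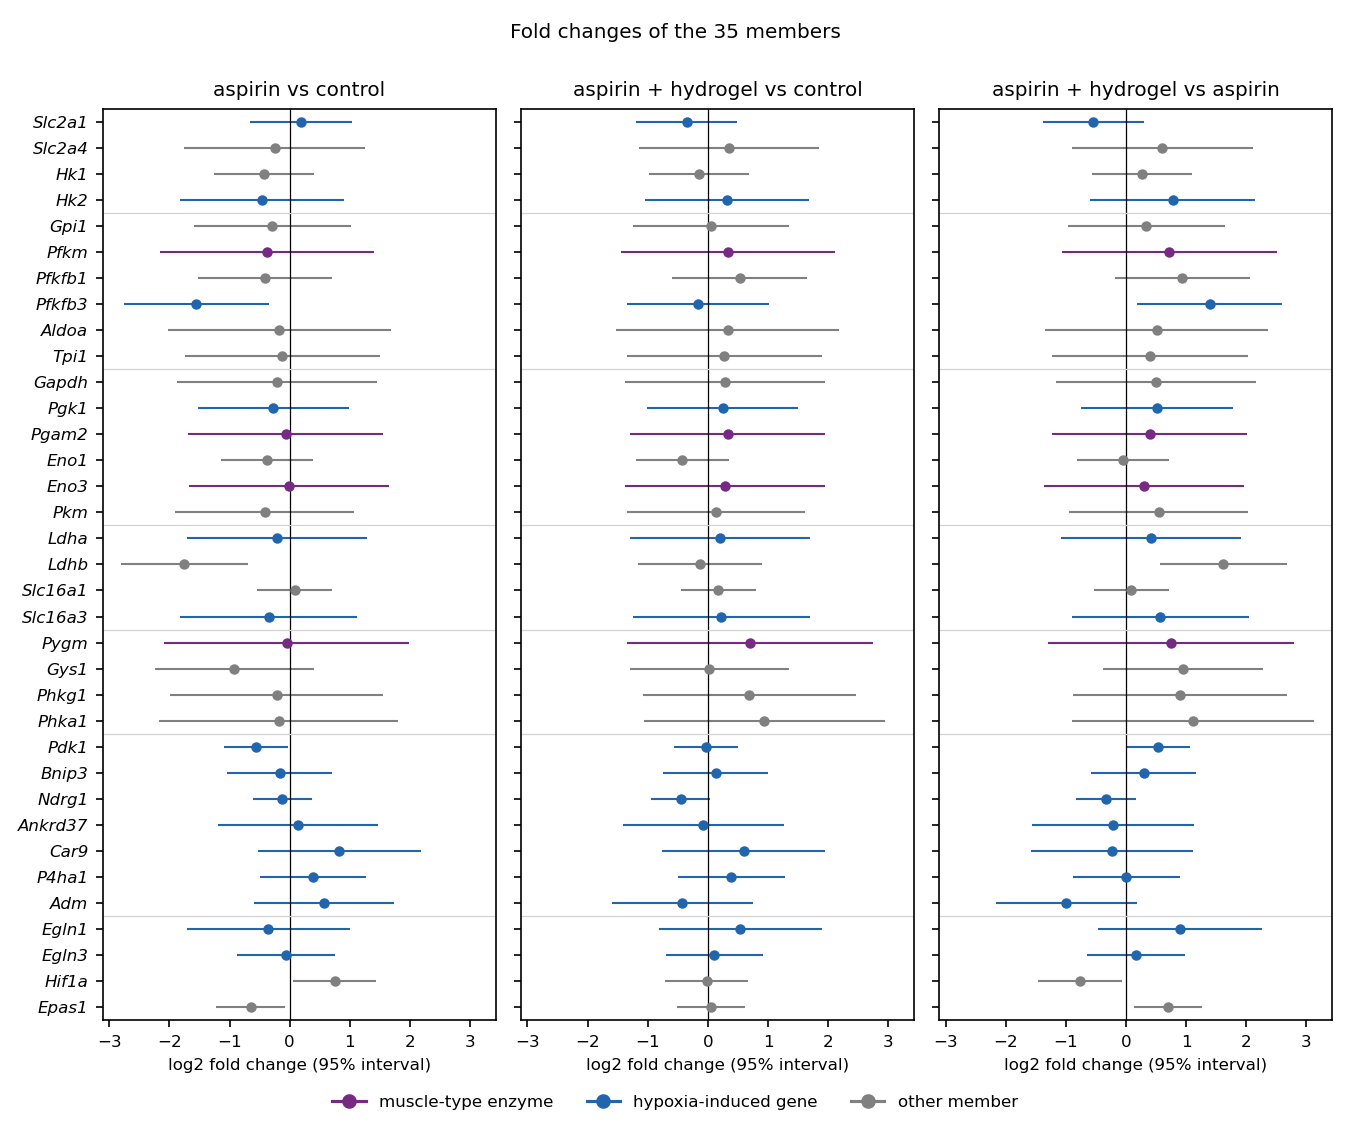
Log2 fold change (x axis) with its 95% interval for the 35 genes (y axis, grouped by role from glucose uptake at the top to oxygen sensing at the bottom) in aspirin against control, hydrogel against control and hydrogel against aspirin. Muscle-type enzymes are purple, hypoxia-induced genes blue and the others grey. The widest shifts are those of Ldhb, -1.75 in the first panel and 1.62 in the third, and none passed an adjusted p of 0.05 by edgeR.

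The hypoxia-induced list showed no common direction. Between aspirin and control, 5 of 15 were higher, with a median log2 fold change of -0.16. Between hydrogel and control it was 9 of 15, with a median of 0.13, and between hydrogel and aspirin 10 of 15, with a median of 0.29. With scaling by library size alone the counts were 8, 6 and 7 of 15 and the medians 0.11, -0.029 and -0.16, of the opposite sign. The medians of all genes were then 0.27, -0.25 and -0.51, and the list lay on the same side of them as with TMM in all 3 comparisons. The first median was 0.10 without Aspirin replicate 1 and -0.031 without Control replicate 3, the second was -0.061 without Hydrogel replicate 3 and -0.053 without Control replicate 1, and the third was 0.093 without Aspirin replicate 1.

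Lactate dehydrogenase gave the clearest group difference. Ldhb (ENSMUSG00000030246, chromosome 6, 142490249 to 142507957, minus strand) encodes the subunit typical of heart and slow fibres, which favours the use of lactate, and its level was 131, 59.7 and 38.7 CPM in the hydrogel libraries, 16.2, 25.4 and 32.9 CPM in the aspirin libraries and 68.5, 110.4 and 71.5 CPM in the controls. Every aspirin library lay below every other library, and the hydrogel libraries ran from above the highest control to below the lowest. The means were 76.3 ± 48.1 CPM in the hydrogel libraries, 24.8 ± 8.40 CPM in the aspirin libraries, against 83.5 ± 23.4 CPM in the controls (SD, n = 3 each). The log2 fold change was -1.75 ± 0.47 (SE) for aspirin against control, with a 95% interval of -2.81 to -0.69 (adjusted p = 0.753 by edgeR), and 1.62 ± 0.47 for hydrogel against aspirin, 0.57 to 2.68 (adjusted p = 0.453 by edgeR). DESeq2 gave adjusted p-values of 0.0467 and 0.0628 for the same differences, so the first passed the threshold in that tool and the second did not. Hydrogel against control gave -0.13 ± 0.45. Leaving out Aspirin replicate 1 made the first 2 values -1.52 and 1.39. Without Hydrogel replicate 1, hydrogel against aspirin was 0.99 and hydrogel against control -0.76, and hydrogel against control was 0.17 without Hydrogel replicate 3.

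Ldha, the muscle subunit that turns pyruvate into lactate, did not follow Ldhb. It stood at 2409.7, 2149 and 3740.3 CPM in the hydrogel libraries, 539, 1997 and 3672 CPM in the aspirin libraries and 1510.3, 2516 and 3161 CPM in the controls, with overlapping groups. The ratio of Ldha to Ldhb on the FPKM scale was 8.74, 17.1 and 45.8 in the hydrogel libraries, 15.8, 37.2 and 52.9 in the aspirin libraries and 10.4, 10.8 and 20.9 in the controls, and these ranges overlapped. Slow-fibre markers, 8 in number and none at 0 in every library, summed to 154 to 821 CPM in the hydrogel libraries, 294 to 513 CPM in the aspirin libraries and 290.3 to 1097 CPM in the controls, with 0 of 8 higher after aspirin than in the controls. The 8 adipocyte markers summed to 1268 to 5094, 1317 to 3278 and 4071 to 6425 CPM in the same order of groups, with 0 of 8 higher after aspirin. Between hydrogel and control, 0 of 8 were higher in both lists as well. The part of these cells in the Ldhb difference was not tested. Slc16a3, the lactate exporter, stood at 119, 134 and 204 CPM in the hydrogel libraries, 20.3, 117 and 171 CPM in the aspirin libraries and 75.3, 144 and 173 CPM in the controls, and Slc16a1, which carries lactate both ways, at 27.5, 24.3 and 46.5 CPM in the hydrogel libraries, 30.5, 24.9 and 37.1 CPM in the aspirin libraries and 26.1, 31.4 and 29.8 CPM in the controls. All groups overlapped for both transporters. The FPKM ratio of Slc16a3 to Slc16a1 was 3.61, 4.601 and 3.65 in the hydrogel libraries, 0.552, 3.90 and 3.83 in the aspirin libraries and 2.399, 3.81 and 4.83 in the controls, so Aspirin replicate 1 alone had more Slc16a1 than Slc16a3 per length.

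Among the hexose phosphate steps, Pfkfb3 stood apart from its neighbours. Pfkfb3 (ENSMUSG00000026773, chromosome 2, 11471433 to 11554077, minus strand) makes the sugar bisphosphate that activates phosphofructokinase and is a known target of hypoxia-inducible factor, and its level was 47.2, 102 and 239 CPM in the hydrogel libraries, 47.8, 35.2 and 65.0 CPM in the aspirin libraries and 114, 146 and 175 CPM in the controls. All aspirin libraries lay below all controls, while the hydrogel libraries ran from the aspirin range to above the highest control. Its log2 fold change was -1.55 ± 0.53 (SE) for aspirin against control, with -2.76 to -0.34 as the 95% interval (adjusted p = 0.753 by edgeR), 1.39 ± 0.53 for hydrogel against aspirin (adjusted p = 0.453) and -0.16 ± 0.52 for hydrogel against control (adjusted p = 0.989). The first 2 were -1.54 and 1.38 without Aspirin replicate 1. Hydrogel replicate 3 decided the other values, since hydrogel against aspirin was 0.57 and hydrogel against control -0.97 without it. Pfkfb1, another form of that enzyme, stood at 36.5, 30.4 and 52.6 CPM in the hydrogel libraries, 7.69, 26.9 and 27.8 CPM in the aspirin libraries and 15.4, 35.5 and 31.9 CPM in the controls. All hydrogel libraries lay above all aspirin libraries, but they overlapped with the controls, and the log2 fold changes were 0.94 ± 0.50 against aspirin and 0.53 ± 0.49 against control (adjusted p = 0.481 and 0.987 by edgeR). Gpi1, the isomerase, stood at 827, 868 and 1236 CPM in the hydrogel libraries, 269.5, 723 and 1321 CPM in the aspirin libraries and 570.5, 966 and 1284 CPM in the controls. Aldoa, which splits the sugar, stood at 6838, 7224 and 16529 CPM in the hydrogel libraries, 1272, 7693 and 12513 CPM in the aspirin libraries and 4031, 8754 and 11476 CPM in the controls. Both had overlapping groups, as did Tpi1, at 230.4 to 2375 CPM.

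**Figure D5:**
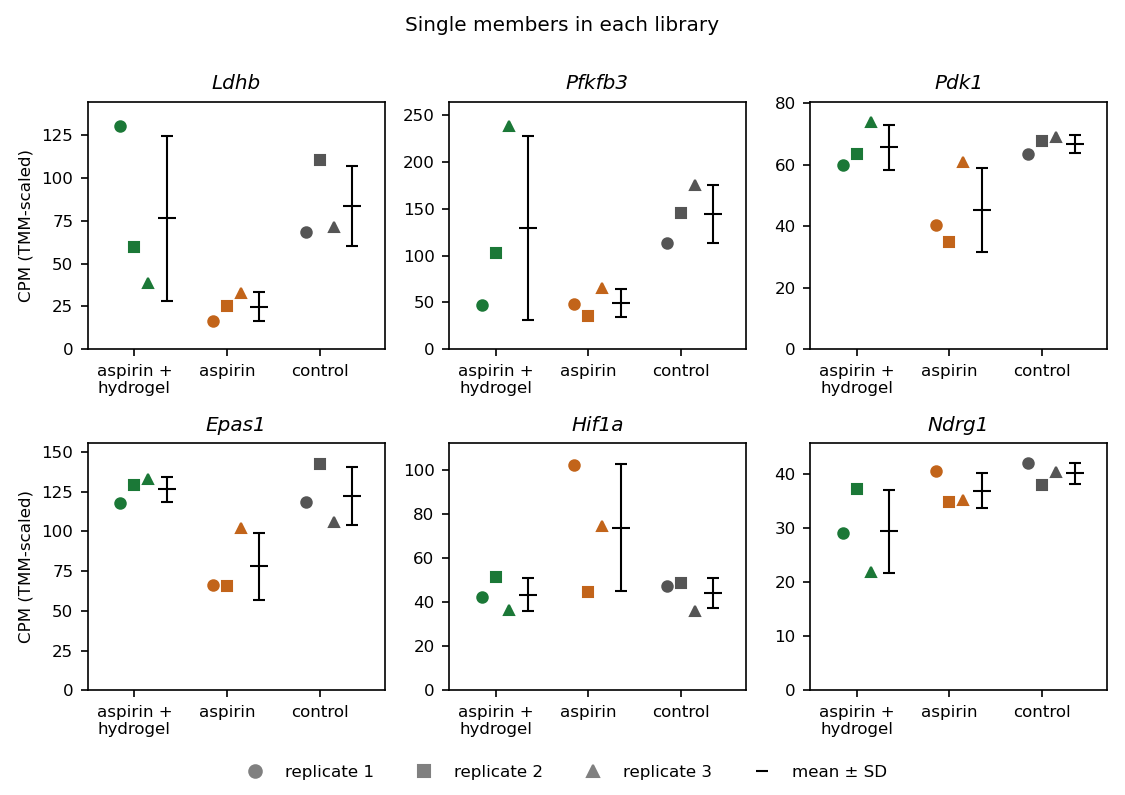
Level of Ldhb, Pfkfb3, Pdk1, Epas1, Hif1a and Ndrg1 (y axes, CPM on TMM-scaled library sizes, from 0) in the hydrogel, aspirin and control libraries (x axis). Symbols are replicates and the bar beside them the mean ± SD (n = 3). The 3 aspirin libraries lie below the controls for Ldhb, Pfkfb3, Pdk1 and Epas1.

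Glucose uptake and phosphorylation showed no separated groups. Slc2a4, the insulin-responsive transporter of muscle, stood at 289.8, 263 and 354 CPM in the hydrogel libraries, 32.7, 249 and 315 CPM in the aspirin libraries and 157, 263 and 291 CPM in the controls. Slc2a1, the basal transporter, stood at 8.39, 8.31 and 3.90 CPM in the hydrogel libraries, 12.7, 6.18 and 11.1 CPM in the aspirin libraries and 9.72, 7.17 and 9.45 CPM in the controls, and its log2 fold change for hydrogel against control was -0.35 ± 0.37 (SE) (adjusted p = 0.987 by edgeR). On the FPKM scale the ratio of Slc2a1 to Slc2a4 was 0.0287, 0.0312 and 0.0108 in the hydrogel libraries, 0.387, 0.0244 and 0.0348 in the aspirin libraries and 0.0613, 0.0270 and 0.0322 in the controls. Aspirin replicate 1 thus had the highest share of the basal transporter, at 0.387. Hk2, the muscle hexokinase, stood at 243, 199.8 and 338 CPM in the hydrogel libraries, 37.5, 219 and 198 CPM in the aspirin libraries and 117, 242 and 265 CPM in the controls. Hk1, its housekeeping relative, stood at 26.5, 33.9 and 19.6 CPM in the hydrogel libraries, 12.2, 27.6 and 26.7 CPM in the aspirin libraries and 34.7, 19.9 and 34.2 CPM in the controls, with a log2 fold change of -0.42 ± 0.37 for aspirin against control (adjusted p = 0.818 by edgeR). The FPKM ratio of Hk2 to Hk1 ran from 4.41 in Aspirin replicate 1 to 24.6 in Hydrogel replicate 3.

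In the later steps of glycolysis the abundant enzymes followed the muscle-type pattern. Gapdh stood at 5378, 5334 and 9157 CPM in the hydrogel libraries, 942, 4604 and 8491 CPM in the aspirin libraries and 3411, 5654 and 7237 CPM in the controls. Pgk1, the kinase that makes the first ATP of the pathway, stood at 921, 879 and 1501 CPM in the hydrogel libraries, 270.1, 844 and 1193 CPM in the aspirin libraries and 607, 972 and 1205 CPM in the controls, and Pkm, the kinase that makes the last, at 2462, 2401 and 4127 CPM in the hydrogel libraries, 508, 2097 and 3546 CPM in the aspirin libraries and 1909, 3094 and 3205 CPM in the controls. None of the 3 separated the groups. Eno1, the enolase of most tissues, behaved otherwise and stood at 213, 177 and 166 CPM in the hydrogel libraries, 130.1, 152 and 293 CPM in the aspirin libraries and 229, 244 and 275 CPM in the controls. All hydrogel libraries lay below all controls, with a log2 fold change of -0.43 ± 0.34 (SE) (adjusted p = 0.987 by edgeR), and the aspirin libraries ran from below the lowest to above the highest control, at -0.38 ± 0.34 (adjusted p = 0.822). The FPKM ratio of Eno1 to Eno3 was 0.0223, 0.0168 and 0.00897 in the hydrogel libraries, 0.0595, 0.0153 and 0.0151 in the aspirin libraries and 0.0338, 0.0256 and 0.0178 in the controls, with overlap between all groups. Named copies of these genes also took counts. Eno1b held 1.5 to 8.4% of the Eno1 count and Pgk1-rs7 held 7.87 to 8.77% of the Pgk1 count, while copies of Ldha, Gapdh, Tpi1 and Aldoa held under 0.5% of their genes' counts, so Eno1 and Pgk1 are uncertain to that extent.

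Among the 35 genes, Phka1, Pygm and Phkg1 of glycogen turnover had the largest fold changes between hydrogel and control, but with wide errors. Phka1, a regulatory subunit of the kinase that activates phosphorylase, stood at 518, 771 and 1292 CPM in the hydrogel libraries, 43.2, 371 and 774 CPM in the aspirin libraries and 174, 512 and 658 CPM in the controls, a log2 fold change of 0.94 ± 0.88 (SE) for hydrogel against control (adjusted p = 0.987 by edgeR). Phkg1, its catalytic subunit in muscle, stood at 497, 559.6 and 921 CPM in the hydrogel libraries, 40.4, 438 and 579 CPM in the aspirin libraries and 232, 493 and 505 CPM in the controls, with 0.69 ± 0.78 (adjusted p = 0.987). For both, hydrogel and control libraries overlapped. Gys1, the muscle glycogen synthase, stood at 294, 318 and 345 CPM in the hydrogel libraries, 39.7, 152 and 306 CPM in the aspirin libraries and 341, 328 and 273 CPM in the controls. Aspirin replicates 1 and 2 lay below all other libraries for Gys1 and replicate 3 lay among them. It gave log2 fold changes of -0.92 ± 0.59 for aspirin against control and 0.94 ± 0.59 for hydrogel against aspirin (adjusted p = 0.77 and 0.521 by edgeR). Glycogen genes, Pygm included, were higher in 4 of 4 for hydrogel against control, with a median of 0.69, and in 0 of 4 for aspirin against control, with a median of -0.198. The first was 0.26 with 3 of 4 higher without Hydrogel replicate 3 and 0.41 without Control replicate 1. The second was 0.33 with 3 of 4 higher without Aspirin replicate 1, 0.088 with 2 of 4 without Control replicate 3, -0.082 without Control replicate 2, -0.53 without Control replicate 1 and -0.97 without Aspirin replicate 3. Fast-fibre markers were higher in 11 of 12 for hydrogel against control and in 1 of 12 for aspirin against control, and their part in these values was not tested.

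Among the targets of hypoxia-inducible factor outside glycolysis, Pdk1 had the smallest unadjusted p in both comparisons with aspirin and Ndrg1 in hydrogel against control. Fold changes larger in size than that of Pdk1 were those of Car9 and Adm between aspirin and control. Between hydrogel and aspirin they were those of Adm and Egln1. Pdk1 (ENSMUSG00000006494, chromosome 2, 71873224 to 71903858, plus strand) encodes a kinase that shuts off pyruvate dehydrogenase. Its level was 59.8, 63.4 and 73.8 CPM in the hydrogel libraries, 40.4, 34.9 and 60.8 CPM in the aspirin libraries and 63.6, 67.8 and 69.1 CPM in the controls. Each aspirin library lay below each control, while the hydrogel libraries overlapped with both. Pdk1 had a log2 fold change of -0.56 ± 0.24 (SE) for aspirin against control, with a 95% interval of -1.10 to -0.021 (adjusted p = 0.753 by edgeR), and 0.53 ± 0.24 for hydrogel against aspirin (adjusted p = 0.455). These were -0.49 and 0.46 without Aspirin replicate 1. Ndrg1 (ENSMUSG00000005125, chromosome 15, 66929318 to 66969640, minus strand), a stress-responsive gene, stood at 29.1, 37.2 and 21.8 CPM in the hydrogel libraries, 40.6, 34.8 and 35.2 CPM in the aspirin libraries and 42.0, 38.0 and 40.3 CPM in the controls, and all hydrogel libraries lay below all controls. Its log2 fold change was -0.45 ± 0.22, the smallest unadjusted p of the 35 genes in that comparison (adjusted p = 0.987 by edgeR), and -0.33 ± 0.22 against aspirin (adjusted p = 0.539).

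Adm, P4ha1, Bnip3, Car9 and Ankrd37 overlapped between all groups, and Egln1 and Egln3 are given further below. Adm, a peptide that widens blood vessels, stood at 2.44, 4.71 and 9.14 CPM in the hydrogel libraries, 12.4, 14.9 and 5.06 CPM in the aspirin libraries and 6.19, 8.11 and 7.504 CPM in the controls, with log2 fold changes of 0.57 ± 0.51 (SE) for aspirin against control, -0.42 ± 0.51 for hydrogel against control and -0.99 ± 0.52 for hydrogel against aspirin (adjusted p = 0.821, 0.987 and 0.476 by edgeR). P4ha1, a subunit of the collagen prolyl hydroxylase, stood at 27.1, 34.8 and 59.9 CPM in the hydrogel libraries, 22.3, 55.8 and 43.0 CPM in the aspirin libraries and 26.8, 27.4 and 38.6 CPM in the controls, with 0.39 ± 0.39 for hydrogel against control (adjusted p = 0.987 by edgeR). Bnip3, which promotes removal of mitochondria, stood at 149, 124 and 178 CPM in the hydrogel libraries, 101, 194 and 73.8 CPM in the aspirin libraries and 96.7, 156 and 159.9 CPM in the controls. Car9, a carbonic anhydrase at the cell surface and a common marker of hypoxic cells, was low, at 1.38, 2.15 and 2.403 CPM in the hydrogel libraries, 1.51, 1.57 and 3.89 CPM in the aspirin libraries and 1.20, 0.514 and 2.21 CPM in the controls. A library with no count would lie below 0.0554 to 0.1 CPM, from a floor of 3 counts. The log2 fold change of Car9 was 0.83 ± 0.60 for aspirin and 0.60 ± 0.60 for hydrogel against control (adjusted p = 0.792 and 0.987 by edgeR). Ankrd37 stood at 1.35, 1.45 and 2.37 CPM in the hydrogel libraries, 3.66, 0.726 and 1.60 CPM in the aspirin libraries and 2.59, 1.30 and 1.57 CPM in the controls.

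The oxygen-sensing genes differed in direction. Hif1a (ENSMUSG00000021109, chromosome 12, 73901375 to 73947530, plus strand), the oxygen-regulated subunit of hypoxia-inducible factor 1, stood at 42.4, 51.3 and 36.6 CPM in the hydrogel libraries, 102, 44.6 and 74.6 CPM in the aspirin libraries and 47.2, 48.6 and 36.1 CPM in the controls. Aspirin replicates 1 and 3 lay above all other libraries and Aspirin replicate 2 within them. The log2 fold change was 0.75 ± 0.31 (SE) for aspirin against control, with a 95% interval of 0.052 to 1.44 (adjusted p = 0.753 by edgeR), -0.76 ± 0.31 for hydrogel against aspirin (adjusted p = 0.453) and -0.018 ± 0.31 for hydrogel against control (adjusted p = 0.998). The first 2 were 0.43 and -0.45 without Aspirin replicate 1, which moved both by more than 1.5 times. Macrophage markers summed to 659 to 1461 CPM in the hydrogel libraries, 1468 to 3291 CPM in the aspirin libraries and 731 to 1868 CPM in the controls, and none of the 14 was at 0 in every library. They were higher in 14 of 14 for aspirin against control, in 6 of 14 for hydrogel against control and in 0 of 14 for hydrogel against aspirin. The 12 neutrophil markers summed to 11.4 to 36.3, 32.8 to 432 and 23.1 to 175 CPM in the same order of groups. The part of these cells in the Hif1a values was not tested.

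Epas1 (ENSMUSG00000024140, chromosome 17, 86753700 to 86833410, plus strand), the related subunit best known from endothelium, went the other way and stood at 118, 129 and 133 CPM in the hydrogel libraries, 65.9, 65.5 and 102 CPM in the aspirin libraries and 118, 142 and 106 CPM in the controls. Every aspirin library lay below every other library. Its log2 fold change was -0.65 ± 0.25 (SE) for aspirin against control, with a 95% interval of -1.22 to -0.080 (adjusted p = 0.753 by edgeR), and 0.70 ± 0.25 for hydrogel against aspirin, 0.13 to 1.27 (adjusted p = 0.453). Between hydrogel and control it was 0.049 ± 0.25, with a 95% interval of -0.52 to 0.62. Without Aspirin replicate 1 the first 2 values were -0.55 and 0.60. The 10 endothelial markers, none at 0 in every library, summed to 326 to 519.7 CPM in the hydrogel libraries, 245 to 331 CPM in the aspirin libraries and 407 to 721 CPM in the controls. They were higher in 0 of 10 for aspirin against control, in 1 of 10 for hydrogel against control and in 9 of 10 for hydrogel against aspirin, and their part in it was not tested.

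Egln1, the main prolyl hydroxylase of the pathway, stood at 147, 145 and 245 CPM in the hydrogel libraries, 22.6, 99.0 and 166 CPM in the aspirin libraries and 86.0, 141 and 142 CPM in the controls. All hydrogel libraries lay above all controls, with a log2 fold change of 0.54 ± 0.60 (SE) (adjusted p = 0.987 by edgeR), and 0.90 ± 0.60 against aspirin (adjusted p = 0.54). Per fast-fibre marker these libraries overlapped, with 0.750, 0.677 and 0.682 per 1000 in the hydrogel libraries and 0.749, 0.746 and 0.554 per 1000 in the controls. By that measure Aspirin replicate 1 was at 0.573 for Ldhb, 1.695 for Pfkfb3, 1.43 for Pdk1 and 2.34 for Epas1. The lowest controls were at 0.279, 0.683, 0.27 and 0.414, so aspirin and control overlapped for these genes too. Aspirin replicates 2 and 3 lay below all controls for each. The part of the fibres in these values was not tested. Egln3, a hydroxylase gene that is itself induced by low oxygen, stood at 32.9, 26.8 and 18.5 CPM in the hydrogel libraries, 15.6, 25.1 and 29.0 CPM in the aspirin libraries and 17.7, 19.1 and 35.8 CPM in the controls, with overlapping groups. Whether the counting used strand is not given in the sources used here, and 16 of the 35 genes share 18 to 767 exonic bases with another annotated gene. Among them are Gpi1 with Gm26762 (741 bases), Phkg1 with Sumf2 (630 bases), Bnip3 with Gm45507 (504 bases) and Ndrg1 with Gm17035 (419 bases). Others are Ankrd37 with Lrp2bp (349 bases), Pfkm with Gm26513 (341 bases), Gys1 with Ruvbl2 (310 bases), Pkm with Gm49759 (767 bases) and Hif1a with Gm15283 (330 bases). For Pfkm and Pkm the other gene named lies on the same strand, and Hif1a also shares 148 bases with Gm49321 on its own strand. The counts of all these genes are uncertain to that extent.

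Other genes of the same pathways were taken from lists of 22 for glycolysis, 16 for glycogen, 9 for pyruvate dehydrogenase and its kinases and 27 for hypoxia, and all 74 were tested. For aspirin against control 21 of 74 were higher, with a median log2 fold change of -0.25. For hydrogel against control it was 41 of 74, with a median of 0.037, and for hydrogel against aspirin 49 of 74, with a median of 0.31. An adjusted p under 0.05 was reached by 0 of 74 in each comparison in edgeR and by 1, 0 and 1 in DESeq2, Lox both times (adjusted p = 0.0183 and 3.19e-05), where it called 101, 18 and 157 of all genes. An unadjusted p under 0.05 was reached by 1, 3 and 8 of the 74, or 1.35, 4.05 and 10.8%, against 6.48, 3.92 and 10.9% of all genes tested, so these shares were near or below the background. Without Aspirin replicate 1 the first median was -0.065 and the third 0.083. Without Hydrogel replicate 3 the second was -0.031 and the third 0.20, without Control replicate 1 the first 2 were -0.40 and -0.069, without Control replicate 2 they were -0.14 and 0.092, without Control replicate 3 they were -0.12 and 0.14, and without Hydrogel replicate 2 the second was 0.12. Without Aspirin replicate 3 the first was -0.46 and the third 0.56. Lox, the enzyme that cross-links collagen, stood at 22.5, 31.6 and 20.8 CPM in the hydrogel libraries, 155, 82.0 and 73.6 CPM in the aspirin libraries and 42.6, 31.8 and 40.0 CPM in the controls, with log2 fold changes of 1.44 ± 0.32 (SE) for aspirin against control and -2.05 ± 0.33 for hydrogel against aspirin (adjusted p = 0.747 and 0.453 by edgeR). The aspirin libraries lay above all others. Fibroblast markers summed to 4691 to 7200.0 CPM in the hydrogel libraries, 6140.2 to 11451 CPM in the aspirin libraries and 6755 to 11352 CPM in the controls, and their part in it was not tested.

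Next by unadjusted p for aspirin against control came Gbe1, the glycogen branching enzyme, at -0.80 ± 0.37 (SE), and the vessel growth factor gene Vegfa, at -1.01 ± 0.48 on the log2 scale. Neither reached an unadjusted p under 0.05 by edgeR, and Aspirin replicate 1 was the lowest library for both. Gbe1 stood at 18.6, 51.6 and 56.2 CPM in the aspirin libraries and 58.3, 85.4 and 76.7 CPM in the controls, without overlap, and Vegfa at 26.2, 68.2 and 96.3 CPM in the aspirin libraries and 119, 192 and 73.2 CPM in the controls, with overlap. For hydrogel against control, Angptl4, a lipoprotein lipase inhibitor, was at -1.83 ± 0.56 (SE) and Pdk4, the pyruvate dehydrogenase kinase raised by fasting, at -2.04 ± 0.77. Angptl4 stood at 25.3, 17.3 and 9.71 CPM in the hydrogel libraries and 57.5, 93.3 and 36.0 CPM in the controls. Pdk4 stood at 136, 125 and 327 CPM in the hydrogel libraries and 381, 1138 and 899 CPM in the controls. In both genes every hydrogel library lay below every control, and the adjusted p was 0.987 by edgeR. For hydrogel against aspirin, Pgam1, the mutase of most tissues other than muscle, was at -0.89 ± 0.29 (adjusted p = 0.453 by edgeR). Pgam1 stood at 23.1, 23.9 and 13.4 CPM in the hydrogel libraries and 47.5, 31.7 and 33.2 CPM in the aspirin libraries, again without overlap, while its muscle relative Pgam2 overlapped.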

How the data were processed

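RNA from leg muscle of 9 mice was taken up with an Rneasy mini plus kit, and the SMARTER mRNA-Seq kit was applied to 1 µg of it, according to the labels' protocols. Whole-number counts per gene, not normalised, were deposited by the authors. FPKM, which divides by transcript length and depth, was deposited beside them. For the build, the submitters' processing notes name mm10. Which aligner, counter, annotation and strand setting were used is not given in the sources used here. Once a factor for each library was taken out, counts divided by deposited FPKM gave, in 10432 genes with high counts, a fixed value per gene to within 1% in 99.2% of cases.

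Groups came from the treatment labels, 3 mice each. Groups were tested with the quasi-likelihood test of edgeR (version 4.0.16, R 4.3.3) on the counts of all 9 libraries in 1 fit, with TMM scaling, group as the only term, a robust fit and filterByExpr (minimum count 10, total 15). Adjustment was by Benjamini-Hochberg over 18259 genes, with a threshold of 0.05. Standard errors come from the quasi-likelihood F, with 95% intervals. The common biological coefficient of variation was 0.503. Totals ran from 32197791 to 48170537 counts. The floor of 0.0554 to 0.1 CPM is 3 counts on the TMM-adjusted library size, and floors cover counting error only. DESeq2 (version 1.42.0), its size factors, library size alone, no filter, a replicate block, fits of the 2 groups compared and leaving out each library were alternatives. No libraries agreed within sampling noise (smallest chi-square per degree of freedom 70.5). The tests were tested on simulated counts with known changes, drawn gene by gene from the fitted dispersions. Those held no outlying library, so they do not show how the tests behave with Aspirin replicate 1.

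Replicate numbers come from the sample titles. Deviations from the group means of same-numbered aspirin and control libraries correlated at 0.615, 0.133 and 0.264, all over 0.1, so that comparison was also fitted with the number as a block. The block changed the call of none of the 35 genes. The genes, lists and tests were chosen with earlier results of these data known, so directions over the lists are descriptions. Lists were the members by role, muscle-type, hypoxia-induced, other pathway genes and markers of 10 cell types. Named for each comparison are the 10 genes of smallest unadjusted p, the 4 muscle-type enzymes and, except for a gene that is not reported here, the 3 other pathway genes of smallest p, and every member is given. The markers of the lists not described above, of red cells, lymphocytes and smooth muscle, summed to 398 to 756, 4.07 to 104 and 3297 to 4304 CPM in the hydrogel libraries, 429 to 4322, 2.71 to 991 and 1009 to 5133 CPM in the aspirin libraries and 345 to 6198, 12.7 to 351 and 2804 to 4435 CPM in the controls. Gene positions are from GENCODE vM21 and promoter windows from RefSeq on GRCm38.p6, both 1-based.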

Additional observations from a re-analysis of the deposited data

How the results depend on the processing

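Of the named fold changes, 495 values under alternatives kept their direction and their side of the threshold, 20 changed sign and 1 newly passed, Ldhb for aspirin against control in DESeq2 (adjusted p = 0.0467). The Eno3 fold change for aspirin against control was 0.020 with library size alone. Over all genes, DESeq2 called 101, 18 and 157 genes for aspirin against control, hydrogel against control and hydrogel against aspirin and 153 for any difference, where edgeR called 0 in each, and the cause was not tested. Leaving out 1 library at a time gave 0 to 1 calls for any difference and 0 to 2 for hydrogel against aspirin, and moved these log2 fold changes: aspirin against control, Pfkm -0.99 to 0.14, Pgam2 -0.89 to 0.42, Eno3 -0.81 to 0.47 and Pygm -0.82 to 0.48; hydrogel against aspirin, Pgam2 -0.087 to 1.22 and Eno3 -0.18 to 1.09; hydrogel against control, P4ha1 -0.017 to 0.62, Pfkm -0.082 to 0.52, Eno3 -0.090 to 0.67, Ldhb -0.76 to 0.17 and Pfkfb3 -0.97 to 0.24, the last pair chosen after seeing the data, as were the glycogen and other pathway medians without 1 library. No list median moved by more than 1 SD of the library medians. That SD was 1.23 for the muscle-type genes, 0.46 for the hypoxia-induced genes and 0.73 for the whole list. Each exceeds the main medians of its list, so this measure cannot show that a direction is stable. Some medians changed sign within it. The muscle-type median for aspirin against control went from -0.058 to 0.44 without Aspirin replicate 1. The hypoxia-induced median for hydrogel against aspirin went from 0.29 to -0.16 with library size alone. The median of all genes was 0.27, -0.25 and -0.51 when library size alone set the scale, against 0.046, -0.030 and -0.053 with TMM.

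With the replicate number as a block, edgeR called 1 gene for hydrogel against aspirin, which is none of the 35, and 0 elsewhere. For aspirin against control it moved the median of the 35 genes to -0.45 (from -0.22) and of the muscle-type genes to -0.43 (from -0.058), and left Ldhb at -1.71 (adjusted p = 0.701). For hydrogel against aspirin these medians were 0.71 and 0.93 (0.501 and 0.56 without it). Same-numbered libraries correlated at 0.261, -0.236 and 0.354 between hydrogel and control and at 0.293, -0.441 and 0.482 between hydrogel and aspirin. The titles give only a replicate number. Whether same-numbered mice share anything else, in any of the comparisons, cannot be told from these correlations.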
